A study of Mus musculus with 6 samples.

Results

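The data described here are the transcripts of 10 carboxylesterase genes, Ces1c, Ces1d, Ces1e, Ces1f, Ces1g, Ces2a, Ces2c, Ces2e, Ces3a and Ces3b, among the 25184 genes of a count table from primary mouse hepatocytes. The genes were chosen by name, with earlier results of these data known. Stranded mRNA sequencing was done on 6 libraries. Of these, 3 came from Sucnr1 fl/fl mice, which carry floxed alleles of the succinate receptor gene and no Cre, and 3 from Hep-Sucnr1 KO mice, which carry the same floxed alleles together with 1 copy of Alb-Cre. Cre is driven there by the albumin promoter, so that deletion of exon 2 is directed to hepatocytes, and the Cre line was on a C57BL6J background. The background of the floxed mice is not given in the sources used here. All mice were fed chow, and in both genotypes the hepatocytes were isolated by perfusion and a density gradient and kept overnight on collagen in medium with serum and high glucose. The libraries are named fl/fl 1, fl/fl 2 and fl/fl 3, and KO 3, KO 4 and KO 5, after the numbers in their labels. RNA of fl/fl 1 and KO 3 was extracted on day 1 and RNA of the other libraries on day 2. The labels used here do not give sex or age.

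Carboxylesterases are serine hydrolases of the endoplasmic reticulum that split ester, amide and thioester bonds in lipids and drugs. In the mouse, gene duplication has produced clusters of Ces1 and Ces2 genes, and the liver is a main site of their expression. Ces1d, also called triacylglycerol hydrolase, acts on stored triacylglycerol and has been tied to the assembly of very low density lipoprotein (VLDL). Ces1g, or Es-x, is tied to hepatic lipid control, Ces3a and Ces3b are a pair of duplicated genes abundant in liver, Ces1c is the carboxylesterase that mouse liver secretes into plasma, and Ces2 enzymes hydrolyse acylglycerols and many ester drugs.

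All 10 genes lie on chromosome 8 in the mouse build GRCm38, to which the reads were aligned. The Ces1 genes stand in 1 cluster on the minus strand, from Ces1c at 93099015 to 93131283 to Ces1g at 93302369 to 93337308. The Ces2 and Ces3 genes stand on the plus strand, from Ces2a at 104734003 to 104741634 to Ces3b at 105083753 to 105093929. Each coding sequence, cut from the GENCODE M21 annotation of that build, contains a single match to the Gly-X-Ser-X-Gly-Gly stretch around the catalytic serine. The 63 bases around this serine are shown because they are the enzymes' shared active site and because they show how alike neighbouring genes are to a sequencing read. The capitals mark the codon of the serine.

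Ces1c: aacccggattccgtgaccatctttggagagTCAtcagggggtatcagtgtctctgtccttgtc
Ces1d: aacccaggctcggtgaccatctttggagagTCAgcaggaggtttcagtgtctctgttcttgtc
Ces1e: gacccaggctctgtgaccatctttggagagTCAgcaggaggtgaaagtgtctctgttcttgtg
Ces1f: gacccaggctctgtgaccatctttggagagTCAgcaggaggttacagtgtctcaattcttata
Ces1g: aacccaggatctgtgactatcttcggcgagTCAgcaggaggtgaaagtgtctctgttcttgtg
Ces2a: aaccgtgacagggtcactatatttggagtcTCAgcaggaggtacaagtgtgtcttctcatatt
Ces2c: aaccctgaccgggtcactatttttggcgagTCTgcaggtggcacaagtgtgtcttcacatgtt
Ces2e: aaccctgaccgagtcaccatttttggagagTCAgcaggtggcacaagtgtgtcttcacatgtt
Ces3a: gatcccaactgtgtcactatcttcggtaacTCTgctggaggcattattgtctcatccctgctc
Ces3b: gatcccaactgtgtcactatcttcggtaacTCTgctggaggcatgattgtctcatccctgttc

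In this window Ces3a and Ces3b differed at 2 of 63 bases and Ces2c and Ces2e at 4, whereas Ces1c and Ces3a differed at 25. Over the whole aligned coding sequence, the pairs within Ces1 shared 73.6% to 81.5% of bases and those within Ces2 82.6% to 83.7%. Ces3a and Ces3b shared 95.3%, with a longest identical run of 194 bases, and pairs from different subfamilies shared 58.8% to 62.0%. The other end of the coding sequence is shown because it sets where the protein goes: a carboxylesterase that ends in His-X-Glu-Leu is retrieved to the endoplasmic reticulum by the KDEL receptors. The capitals mark the last 4 codons before the stop codon.

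Ces1c: acagaccctactgaacacACAGAACACAAA
Ces1d: aggccatcccacagggaaCATGTTGAGCTC
Ces1e: aagcaactgccgacagaaCACACTGAGCTG
Ces1f: aaacaaccccagccatacCACAATGAGCTG
Ces1g: aggtcatcccatagggaaCATGTTGAACTG
Ces2a: aagggttctcaggacaagCATGCAGAGCTG
Ces2c: aaggcttctcaggacaagCACAGGGAGCTT
Ces2e: aaggggtctcaggagaggCACAAAGAGTTG
Ces3a: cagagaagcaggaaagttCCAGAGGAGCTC
Ces3b: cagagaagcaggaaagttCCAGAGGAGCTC

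The codons of His-X-Glu-Leu closed 7 of the 10 coding sequences. Ces3a and Ces3b ended in the same 30 bases and carried Glu-Leu with no histidine before it, which brought the number with a final Glu-Leu to 9 of 10. Ces1c, the plasma enzyme, had neither.

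How far reads can tell these genes apart was read from the annotated transcripts. Of all stretches of 100 bases in the transcripts of Ces1d, Ces1e, Ces1f, Ces1g and Ces2e, 0 occurred in another gene. The share was 1.03% for Ces1c (with Ces1b), 6.88% for Ces3a and 7.04% for Ces3b (with each other), 8.13% for Ces2a (with Gm7208) and 13.6% for Ces2c, of which nearly the whole, 13.4%, was shared with its neighbour Ces2d-ps. How pairs that fit more than 1 gene were assigned is not given in the sources used here. Part of the counts of Ces2a, Ces2c, Ces3a and Ces3b therefore cannot be placed with certainty. The same holds for Ces2d-ps. Of its stretches of 100 bases, 57.0% occurred in another gene, and 48.3% in Gm8798, its main partner. The coding sequence of Ces2c was 97.6% identical to Ces2d-ps, an unprocessed pseudogene, and the longest run the pair share, 181 bases, is the 3′ end of the Ces2c coding sequence (positions 1503 to 1683). It is shown because a read from it fits both genes.

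Ces2c and Ces2d-ps: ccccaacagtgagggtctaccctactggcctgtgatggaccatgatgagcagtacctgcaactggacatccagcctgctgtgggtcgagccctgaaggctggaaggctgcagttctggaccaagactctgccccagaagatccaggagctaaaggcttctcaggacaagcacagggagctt

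The library totals lay between 30504248 and 38770694 counts. Counts were scaled to CPM (counts scaled to a common library total, with TMM factors) and, where genes are compared with one another, to RPKM (CPM per 1000 bases of exon). The lowest count of any member in any library was 1691 (Ces2c in KO 5), so that counting error was small beside the differences between libraries. Sucnr1 itself, the targeted gene, had 258, 118 and 103 counts in the Sucnr1 fl/fl libraries and 84, 28 and 5 in the Hep-Sucnr1 KO libraries. The genotypes did not overlap, the log2 fold change was −2.23 (SE 0.54), and the adjusted p was 0.998 in edgeR's quasi-likelihood test and 0.0316 in DESeq2.

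Carboxylesterase transcripts were abundant in every library. The 10 genes together took between 0.402% (KO 5) and 0.502% (KO 4) of all counts, with a mean of 0.456% ± 0.032 (SD, n = 6). By mean RPKM over the 6 libraries, Ces3a (612 ± 75.0, SD) and Ces1c (588 ± 36.2) stood at ranks 88 and 90 of 16451 protein-coding genes with a count. Ces3b followed at 169 ± 7.60 RPKM, Ces1d at 128 ± 16.8 and Ces2a at 103 ± 16.0. Below them were Ces1f at 72.8 ± 8.95, Ces2e at 45.2 ± 9.35, Ces1e at 37.3 ± 12.6, Ces2c at 34.0 ± 22.6 and Ces1g at 33.3 ± 6.30 RPKM, the last at rank 1027.

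Several neighbours in this order did not differ beyond their spread. Ces3a was above Ces1c in 4 of 6 libraries, Ces1e above Ces2c in 4 and Ces2c above Ces1g in only 2. Ces1c was above Ces3b in all 6 libraries, by 3.20 to 3.77 times, and Ces3b above Ces1d in all 6, with no overlap of their ranges in both cases. Ces1d was above Ces2a and Ces2a above Ces1f in 6 of 6 libraries, although their ranges over libraries overlapped. In single libraries the order of Ces2a and Ces1f depended on the length used. Per base of the longest transcript their means kept their order, at 124.4 and 124.2 RPKM. Ces1f was then above Ces2a in every Sucnr1 fl/fl library and in KO 3. By that length the means of Ces2c and Ces1e changed places, at 39.7 and 39.4 RPKM. By summed exon length, Ces1f and Ces2e did not overlap, and Ces2e was above Ces1e in 5 of 6.

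**Figure D1:**
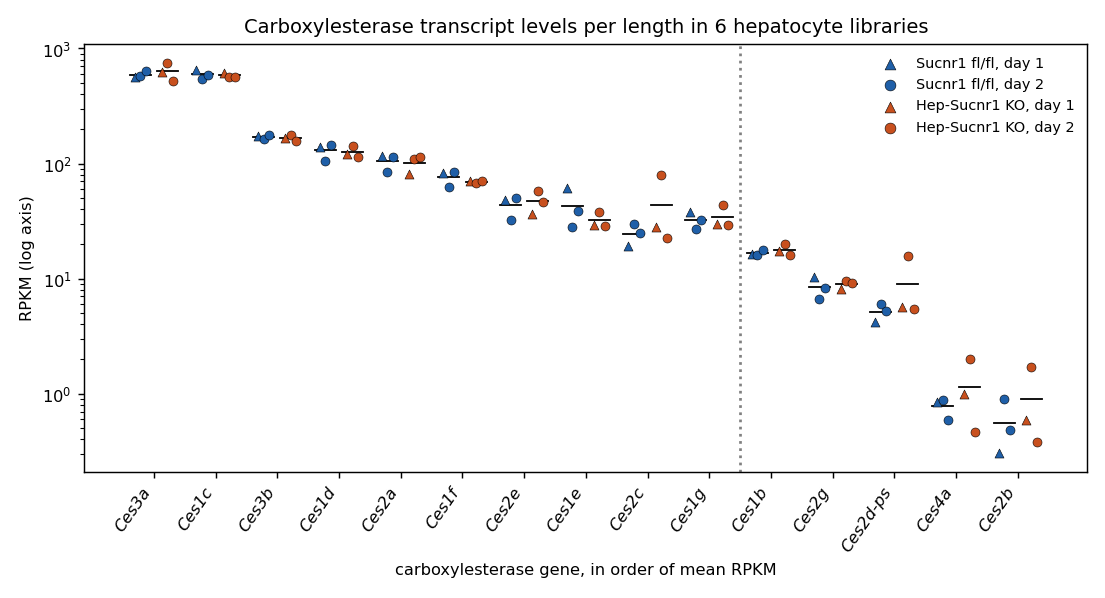
Level per length (RPKM, logarithmic axis) of the 15 carboxylesterase genes that passed the filter on low counts, in order of the mean, with 1 point per library (triangles, day 1; circles, day 2) and a bar at each genotype's mean. The 10 members stand to the left of the dotted line, from Ces3a at 612 to Ces1g at 33.3 RPKM, and the highest Ces2c point is KO 4 at 79.6 RPKM.

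Of the summed RPKM of the 10 genes, Ces1 genes held 47.2% ± 2.83 (SD, n = 6), Ces3 genes 42.8% ± 2.44 and Ces2 genes 9.96% ± 1.45. In Sucnr1 fl/fl libraries the Ces1 share was 48.3% ± 2.56 and in Hep-Sucnr1 KO libraries 46.2% ± 3.16 (SD, n = 3 each). The Ces2 share was 9.53% ± 0.612 and 10.4% ± 2.08, and the Ces3 share 42.2% ± 2.84 and 43.5% ± 2.36. The means of the genotypes thus lay within the spread of the libraries for all 3 subfamilies. KO 4 had the lowest Ces1 share (42.5%), the highest Ces2 share (12.1%) and the highest Ces3 share (45.3%) of the 6 libraries.

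The first comparison asked whether loss of the succinate receptor in hepatocytes went with a change in these transcripts. With extraction day in the model, 0 of the 10 genes passed an adjusted p of 0.05 in edgeR's quasi-likelihood test or in DESeq2, where the share over all 15105 genes tested was 0% in edgeR and 0.0463% in DESeq2. At an unadjusted p below 0.05 the count was again 0 of 10 in both tools, beside 3.72% of all genes in edgeR and 2.88% in DESeq2. The genotypes overlapped for all 10 genes, while 10.6% of all genes did not overlap. Over the 10 genes the median log2 fold change was −0.02 (−0.10 without fl/fl 2 and 0.055 without fl/fl 1) and 4 values were above 0, and over all genes it was 0.00 and 50.5% were. In bulk RNA of this kind, fewer cells of a type and less RNA per cell cannot be told apart. Nothing in the labels beyond this number marks the libraries as separate cultures, and for 3 against 3 an exact permutation test cannot give a p below 0.1.

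Ces1c, the secreted enzyme, was at 1507, 1270.0 and 1366 CPM in the Sucnr1 fl/fl libraries and at 1415, 1326 and 1318 CPM in the Hep-Sucnr1 KO libraries. The KO values lay inside the range of the fl/fl values. The fold change was 0.981 (95% interval 0.787 to 1.22, edgeR, adjusted p = 0.998).

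Ces1d, the triacylglycerol hydrolase, was at 332, 249 and 345 CPM in the Sucnr1 fl/fl libraries and at 286, 338 and 273 CPM in the Hep-Sucnr1 KO libraries. The lowest and the highest of the 6 libraries, fl/fl 2 and fl/fl 3, were of the same genotype. The fold change was 0.969 (95% interval 0.729 to 1.29).

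Ces1f, another hydrolase of triacylglycerol, was at 271, 204 and 279 CPM in Sucnr1 fl/fl libraries. In Hep-Sucnr1 KO libraries it was at 230.1, 221 and 230.2 CPM. The 3 KO values were close to each other and between the extremes of the fl/fl values, with a fold change of 0.906 (95% interval 0.707 to 1.16).

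Ces1g was at 90.9, 64.1 and 76.6 CPM in the Sucnr1 fl/fl libraries and at 71.8, 104 and 69.7 CPM in the Hep-Sucnr1 KO libraries. KO 4 was the highest of the 6 and the 2 other KO libraries were below 2 of the fl/fl libraries. The fold change was 1.06 (95% interval 0.757 to 1.49).

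Ces3b varied least between libraries. It was at 441, 418 and 451 CPM in the Sucnr1 fl/fl libraries and at 431, 457 and 406 CPM in the Hep-Sucnr1 KO libraries, and its coefficient of variation over the 6 libraries, 4.49%, was the lowest of the 10 members. Ces3a was at 1491, 1506 and 1665 CPM in the Sucnr1 fl/fl libraries and at 1654, 1947 and 1384 CPM in the Hep-Sucnr1 KO libraries. The KO group held both the highest (KO 4) and the lowest (KO 5) Ces3a library. The fold changes were 0.987 (95% interval 0.804 to 1.21) for Ces3b and 1.07 (0.801 to 1.43) for Ces3a. Because the pair share sequence, their ratio was also read: Ces3a was at 3.30 to 3.60 times the RPKM of Ces3b in Sucnr1 fl/fl and at 3.33 to 4.16 times in Hep-Sucnr1 KO libraries.

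Ces2a, an acylglycerol hydrolase, was at 275, 199 and 270.2 CPM in the Sucnr1 fl/fl libraries and at 192, 258 and 269 CPM in the Hep-Sucnr1 KO libraries. Ces2e was at 129.9, 86.7 and 135 CPM in the Sucnr1 fl/fl libraries and at 98.3, 155 and 126 CPM in the Hep-Sucnr1 KO libraries. For both genes each genotype held 1 low and 2 higher libraries. The fold changes were 0.960 (95% interval 0.699 to 1.32) for Ces2a and 1.07 (0.731 to 1.56) for Ces2e.

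Counts were also summed over every Ces1, Ces2 or Ces3 row of the table, the genes outside the 10 included, so that reads split within a subfamily do not matter. The log2 fold changes were −0.05 (SE 0.15) for Ces1, 0.14 (SE 0.21) for Ces2 and 0.07 (SE 0.17) for Ces3.

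**Figure D2:**
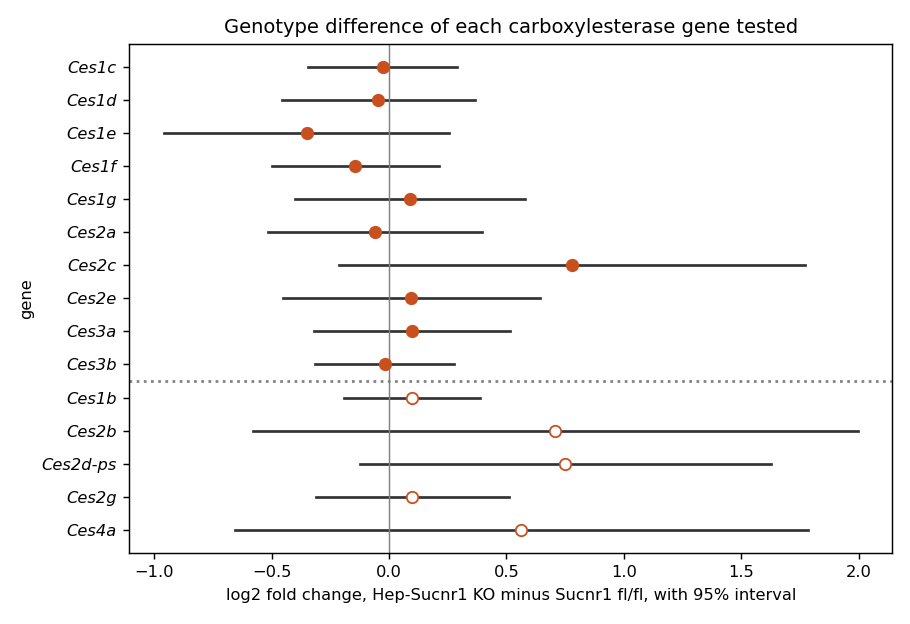
Log2 fold change between the genotypes (Hep-Sucnr1 KO minus Sucnr1 fl/fl) with its 95% interval (edgeR, extraction day in the model) for the 10 members (filled points) and the 5 other carboxylesterase genes tested (open points, below the dotted line). Every interval crosses 0, and the widest among the members is that of Ces2c, from −0.21 to 1.77.

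Ces2c stood apart from the other members. This acylglycerol hydrolase was at 44.5, 68.4 and 57.2 CPM in Sucnr1 fl/fl libraries and at 64.4, 183 and 51.3 CPM in the Hep-Sucnr1 KO libraries. KO 4 was at 3.20 times the mean of the other 5 libraries, whereas KO 3 and KO 5 lay within the range of the fl/fl libraries. The coefficient of variation was 66.6%, the highest of the 10. The fold change was 1.72 (95% interval 0.862 to 3.41, unadjusted p = 0.105, adjusted p = 0.998 in edgeR), and without KO 4 the log2 fold change was 0.07 in place of 0.78. Without KO 5 it was 1.13, with an unadjusted p of 0.00216 and an adjusted p of 0.565 in edgeR.

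The library KO 4 was also the highest for some other genes of the Ces2 cluster and for Ces4a, but not for all of the cluster. Ces2a and Ces2g were highest in fl/fl 1, and in KO 4 Ces2g was at 1.12 times the mean of the other libraries. Ces2d-ps was at 6.99, 9.98 and 8.70 CPM in the Sucnr1 fl/fl libraries and at 9.43, 26.0 and 9.01 CPM in the Hep-Sucnr1 KO libraries. Ces2b, which stands next to Ces2c, was at 1.04, 3.04 and 1.65 CPM and at 2.03, 5.79 and 1.30 CPM. Ces4a, at the far end of the cluster (105131800 to 105150109), was at 2.08, 2.13 and 1.45 CPM and at 2.44, 4.84 and 1.12 CPM.

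In KO 4 these were 2.95 times (Ces2d-ps), 3.20 times (Ces2b) and 2.62 times (Ces4a) the mean of the other 5 libraries. Ces2h, too low to be tested, had 13 counts in KO 4 and 1 to 6 in the others. The ratio of Ces2c to Ces2d-ps in RPKM lay between 4.10 (KO 5) and 5.07 (KO 4), so that KO 4 was the highest library for this ratio by a small margin over fl/fl 2 (4.94). Ces4a shared no stretch of 50 or 100 bases with any other gene. Ces2b was 92.1% identical to Ces2c in coding sequence, with a longest identical run of 99 bases. Of its stretches of 50 bases 9.42% occurred in another gene, 2.91% in Ces2c, and of those of 100 bases 0.0881%, so reads of Ces2b and Ces2c can also be shared. The family members directly beside Ces2c on the chromosome are Ces2b and Ces2d-ps. The next ones outward, Ces2a and Ces2e, were at 1.07 and 1.35 times the mean of the other libraries in KO 4. The ratio of Ces2c to Ces2a in RPKM was 0.729 in KO 4 and 0.166 to 0.353 elsewhere.

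None of these genes passed an adjusted p of 0.05 for genotype. The log2 fold changes were 0.75 (SE 0.37, unadjusted p = 0.0818) for Ces2d-ps, 0.71 (SE 0.54) for Ces2b and 0.56 (SE 0.51) for Ces4a, each with an adjusted p of 0.998 in edgeR. Without KO 4 the log2 fold changes were 0.16, −0.05 and −0.26. Without KO 5 they were 1.05, 1.17 and 0.94, with unadjusted p of 0.00396, 0.00969 and 0.0337 and adjusted p of 0.669 to 0.873 in edgeR. With no filter on low counts the unadjusted p of Ces2d-ps was 0.0197 and its adjusted p 0.951. Over the 10 members, KO 4 was the highest library for 5, beside 19.3% of all genes tested, and fl/fl 1 for 3, beside 18.2%.

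**Figure D3:**
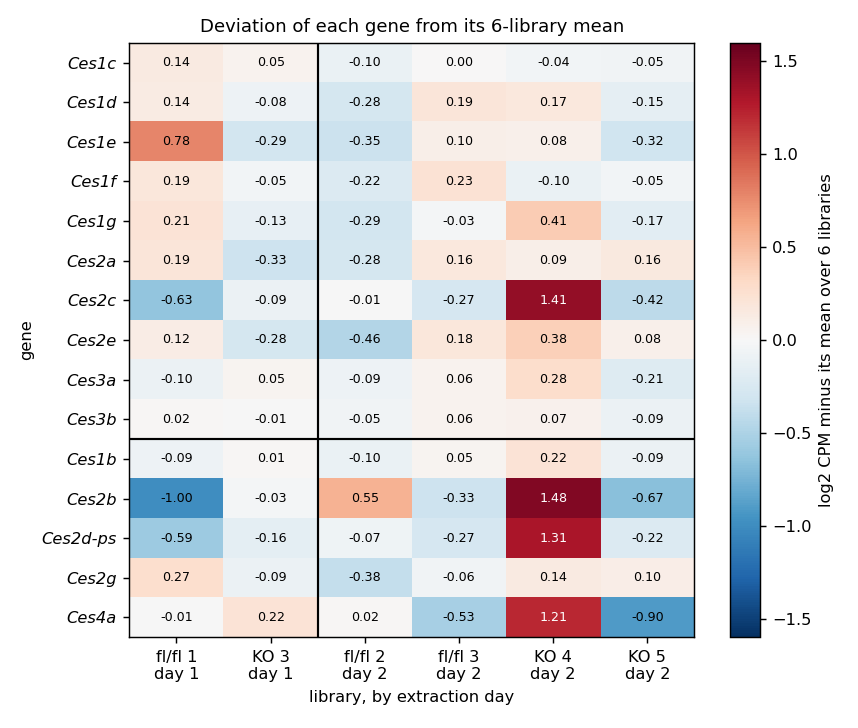
Difference of each gene's log2 CPM from its own mean over the 6 libraries, for the 10 members (above the line) and 5 other carboxylesterase genes, with libraries ordered by extraction day. Ces2c, Ces2b, Ces2d-ps and Ces4a reach 1.21 to 1.48 in KO 4, and Ces1e reaches 0.78 in fl/fl 1.

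The sequences upstream of the Ces2 genes are shown because the 3 members of this subfamily have related coding sequences and unlike values in KO 4. They are the 250 bases before the RefSeq start on the plus strand of GRCm38.p6. Capitals mark matches to CCAAT (or its reverse complement ATTGG) and AGGTCA, a hexamer that many nuclear receptors bind.

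Ces2a, chr8:104733753-104734002: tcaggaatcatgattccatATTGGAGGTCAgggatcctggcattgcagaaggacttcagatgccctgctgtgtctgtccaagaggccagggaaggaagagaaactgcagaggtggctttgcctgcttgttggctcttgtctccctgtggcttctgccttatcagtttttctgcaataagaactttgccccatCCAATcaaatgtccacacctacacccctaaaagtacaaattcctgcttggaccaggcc
Ces2c, chr8:104846818-104847067: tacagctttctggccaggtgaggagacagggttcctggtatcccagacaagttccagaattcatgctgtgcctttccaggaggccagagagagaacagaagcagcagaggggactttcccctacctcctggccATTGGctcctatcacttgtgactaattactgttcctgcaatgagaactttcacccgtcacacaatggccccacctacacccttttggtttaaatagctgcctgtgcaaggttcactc
Ces2e, chr8:104926010-104926259: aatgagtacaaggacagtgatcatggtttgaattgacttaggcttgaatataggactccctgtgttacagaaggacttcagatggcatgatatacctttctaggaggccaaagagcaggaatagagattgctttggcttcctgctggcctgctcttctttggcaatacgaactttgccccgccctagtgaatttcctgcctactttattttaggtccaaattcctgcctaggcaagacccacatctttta

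The upstream sequence of Ces2c shared 67.2% of aligned bases with that of Ces2a and 61.9% with that of Ces2e, and Ces2a shared 67.7% with Ces2e. CCAAT occurred once upstream of Ces2c and at 2 places upstream of Ces2a, AGGTCA occurred only upstream of Ces2a, and neither was found upstream of Ces2e. On either strand, 33.8% of 32851 RefSeq promoters hold CCAAT and 14.0% hold AGGTCA. The motif TATAAA (12.4% of promoters) and CAAAGTCCA (0.384%), a core that HNF4A binds, had no match in the 3 windows. A match of letters is a description and not a binding site. A RefSeq promoter entry was found for 7 of the 10 members.

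Zonation of the liver lobule and nuclear receptors are known to set the level of many drug-metabolising genes, so lists of such genes were read beside Ces2c. The value used is how far, in the median over a list, log2 CPM lay from each gene's 6-library mean. The 11 strict pericentral landmarks, genes of hepatocytes around the central vein, were at 1.16 in KO 4 and between −0.70 (KO 5) and 0.14 in the other libraries, and 9 of the 11 were highest in KO 4. Among them Oat, ornithine aminotransferase, was at 354 CPM in KO 4 and at 80.5 to 136 CPM elsewhere. The 11 strict periportal landmarks were at −0.56 in KO 4, and 6 of them were lowest there.

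Below KO 4, Ces2c and the pericentral landmarks shared the order fl/fl 2, KO 3 and fl/fl 3, and differed in the order of fl/fl 1 and KO 5. KO 5 was lowest for the landmarks, and fl/fl 1 was lowest for Ces2c. The 18 targets of CAR and PXR tested were at 0.35 in KO 4, with 9 of them highest there, and the 20 PPARalpha targets at 0.40, with 10 highest there. Genes of dedifferentiation in culture were lowest in KO 4, at −0.35. The pericentral gene set used in the study includes Ces2b, Ces2c, Ces2d-ps and Ces2h, and does not include Ces2a, Ces2e or Ces4a. The part of zonation, of these receptors and of the culture in the Ces2c values was not tested.

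**Figure D4:**
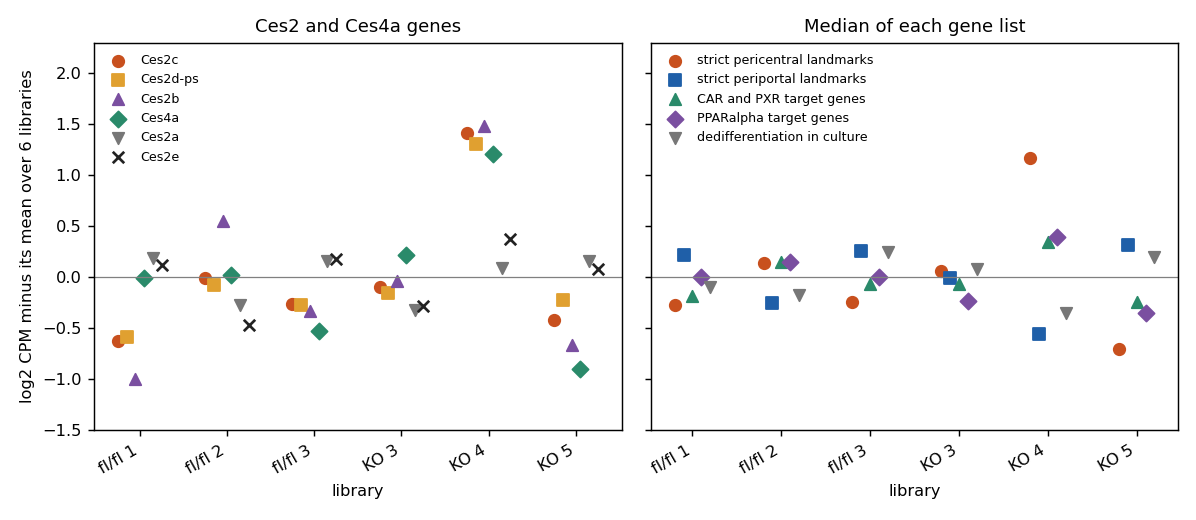
Difference of log2 CPM from the 6-library mean for 6 genes of the Ces2 cluster and its end (left) and the median of that difference over 5 gene lists (right), with 1 point per library and gene or list. KO 4 is the highest library for Ces2c, Ces2d-ps, Ces2b and Ces4a and for the pericentral landmarks (1.16), and the lowest for the periportal landmarks (−0.56).

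Ces1e, also known as egasyn, the protein that holds beta-glucuronidase in the endoplasmic reticulum, varied by a different library. It was at 134, 61.7 and 84.1 CPM in the Sucnr1 fl/fl libraries and at 64.2, 82.9 and 63.1 CPM in the Hep-Sucnr1 KO libraries. The library fl/fl 1 was at 1.89 times the mean of the other 5, which overlapped between the genotypes. The fold change was 0.784 (95% interval 0.515 to 1.19, adjusted p = 0.998 in edgeR). The log2 fold change was −0.35, against 0.0010 without fl/fl 1 and −0.0047 without KO 3. Day 1 held only these libraries, so either value rests on day 2 alone and does not single out fl/fl 1. The neighbouring Ces1d did not share the high value of fl/fl 1. The ratio of Ces1d to Ces1e in RPKM was 2.28 in fl/fl 1 and 3.73 to 4.12 in the other libraries.

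The second comparison was between the extraction days. Of the 10 members, 0 passed an adjusted p of 0.05 in edgeR (0% of all genes) and 0 an unadjusted p below 0.05 (7.49% of all genes). DESeq2 called 1.52% of all genes between the days and 0 of the members. The median log2 fold change of day 2 against day 1 was −0.02 over the members and 0.02 over all genes. Ces1c was the 1 member whose days did not overlap, at 1415 and 1507 CPM on day 1 and at 1270.0 to 1366 CPM on day 2, a log2 fold change of −0.15 (SE 0.14), and 14.8% of all genes did not overlap between the days. The largest day values were those of Ces2c, 0.68 (SE 0.45), and of Ces1e, −0.38 (SE 0.27), and each held the library that stood apart.

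Within day 1 the ratio of the KO library to the fl/fl library ranged from 0.478 for Ces1e to 1.45 for Ces2c, and within day 2 the ratio of the means ranged from 0.935 for Ces1f to 1.87 for Ces2c. Day 1 held 1 library of each genotype and has no replicate check. In a test of the interaction of genotype and day, 1 member, Ces1e, had an unadjusted p below 0.05 (3.69% of all genes). Its genotype difference was 1.07 (SE 0.38) higher on day 2 on the log2 scale, with an unadjusted p of 0.0315 and an adjusted p of 1.00 in edgeR. The ratio was 0.478 on day 1, whose only fl/fl library is fl/fl 1, and 1.00 on day 2.

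Of the 9 other carboxylesterase genes in the table, 5 passed the filter on low counts. Ces1b, the closest of them to a member in level, was at 31.6 to 35.0 CPM in the Sucnr1 fl/fl libraries and at 31.8 to 39.5 CPM in the Hep-Sucnr1 KO libraries, with a log2 fold change of 0.10 (SE 0.12). Ces2g was at 23.7 to 37.3 CPM and at 29.0 to 34.0 CPM, with a log2 fold change of 0.10 (SE 0.17), and the unadjusted p of its interaction with day was 0.0480 (adjusted p = 1.00, edgeR). All 5 had values above 0, beside 50.5% of all genes, and 0 of 5 an unadjusted p below 0.05, beside 3.72%. Without KO 4 the log2 fold changes were 0.0040 for Ces1b, 0.026 for Ces2g and 0.16 for Ces2d-ps. Those of Ces2b and Ces4a were then below 0, at −0.051 and −0.26. Ces1a, Ces1h, Ces2f and Ces2h had at most 13 counts in any library.

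The genes that work with carboxylesterases were read from lists. Over all genes tested, 3.72% had an unadjusted p below 0.05 for genotype in edgeR. At that share, a count of 0 in lists this short says little about their genes. Of 24 other hepatic lipases and esterases tested, 0 had an unadjusted p below 0.05 and the median log2 fold change was −0.01, with Lpl at 0.69 (SE 0.45) and Pnpla2, the adipose triglyceride lipase, at −0.14 (SE 0.09). Of 20 genes of triacylglycerol and VLDL assembly, 0 had an unadjusted p below 0.05 and the median was −0.05, with the chaperone Pdia4 at 0.36 (SE 0.18) and G0s2, an inhibitor of that lipase, at −0.72 (SE 0.33). Of the 6 genes of KDEL receptors and retrieval to the endoplasmic reticulum, 0 did and the median was 0.00, with Kdelr1 at 0.13 (SE 0.09) and Copb1 at −0.06 (SE 0.10).

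Of 16 transcription factors that regulate carboxylesterase genes, 0 had an unadjusted p below 0.05, beside 3.72% of all genes. The median over these factors was −0.06, with Nr1h3 at 0.11 (SE 0.15) and Stat5b at −0.29 (SE 0.14). Among their targets, 1 of 18 CAR and PXR targets had an unadjusted p below 0.05 and a higher level in the KO (1.91% of all genes), the glutathione transferase Gstm3, at a log2 fold change of 0.70 (SE 0.12) with an adjusted p of 0.998 in edgeR and 0.0295 in DESeq2. The median of that list was 0.16, and Abcc4 was at −0.48 (SE 0.34). Of 20 PPARalpha targets, 2 had an unadjusted p below 0.05 and a lower level (1.81% of all genes), the median was −0.10, and Creb3l3 was at −0.29 (SE 0.11) and Slc25a20 at 0.17 (SE 0.20). Of the acute phase response, plasma proteins of inflammation, 16 of 16 genes had a value above 0 (50.5% of all genes), with a median of 0.42, and 8 had an unadjusted p below 0.05 (3.72% of all genes). Its leading gene Lbp was at 0.67 (SE 0.12), with an adjusted p of 0.998 in edgeR and 0.0180 in DESeq2.

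Over the other lists of liver cells the medians were 0.34 for 11 pericentral landmarks and −0.08 for 11 periportal landmarks. All 11 pericentral genes had a value above 0 and all 11 periportal genes a value below 0, beside 50.5% of all genes above 0. KO 4 was the highest library for 9 of the pericentral genes and the lowest for 6 of the periportal genes. The pericentral list was led by Rhbg at 1.42 (SE 0.43), a gene of low level (genotype means of 0.305 for fl/fl and 0.836 CPM for KO). The periportal list was led by Cdh1 at −0.34 (SE 0.29). The 15 genes of dedifferentiation had a median of −0.06, with Ccnd1 at 0.31 (SE 0.33) and Ccn1 at −0.46 (SE 0.16). Of these 3 lists, 1 pericentral gene had an unadjusted p below 0.05 and a higher level in the KO (1.91% of all genes), 0 periportal genes had one, and 1 gene of dedifferentiation had one and a lower level (1.81% of all genes).

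The labelled cell type was checked by its markers. Alb, 1 of 4 hepatocyte markers measured, was at 57922 ± 9809.9 CPM in the Sucnr1 fl/fl libraries and at 50985 ± 16276 CPM in the Hep-Sucnr1 KO libraries (SD, n = 3), the median over the 4 was −0.04, and Hnf4a was at a log2 fold change of 0.19 (SE 0.28). Markers of other cells were summed over each list. The 6 Kupffer cell markers came to 20.3 to 74.4 CPM in Sucnr1 fl/fl and 3.61 to 63.8 CPM in the Hep-Sucnr1 KO libraries, with a median log2 fold change of −0.53 and Marco at −1.18 (SE 0.93), or between −2.04 (without fl/fl 2) and −0.26 (without KO 3). The 6 sinusoidal endothelial markers came to 23.9 to 43.6 and 18.6 to 31.1 CPM, with a median of −0.24, Clec4g at 0.29 (SE 0.33) and Pecam1 at −0.59 (SE 0.26). The 6 stellate cell markers came to 4.58 to 20.5 and 3.37 to 7.44 CPM, with a median of −0.31 over the 3 tested, Lrat at 0.20 (SE 0.63) and Reln at −1.20 (SE 0.42). Both the endothelial and the stellate sums were highest in fl/fl 1, the library with the high Ces1e value, and the part of these cells in that value was not tested.

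The 6 cholangiocyte markers came to 350.1 to 512 and 426 to 650.2 CPM, of which Spp1 alone was 335 ± 67.3 and 399 ± 110.0 CPM (SD, n = 3), with a median of 0.06 over the 5 tested, Spp1 at 0.21 (SE 0.21) and Cftr at −1.54 (SE 1.03), or −2.45 without KO 5. The 5 neutrophil markers came to 0.338 to 2.87 and 1.04 to 2.94 CPM, with a median of 1.11 over the 3 tested and Ngp at 3.06 (SE 0.72). Adipocyte markers came to 5.53 to 9.13 and 4.25 to 7.31 CPM, and the 1 tested, Cidec, was at −0.36 (SE 0.23). The 5 sex-linked genes came to 95.9 to 115 and 103 to 111 CPM, with a median of −0.07, Eif2s3y at 0.08 (SE 0.12) and Kdm5d at −0.26 (SE 0.20). The 9 sex-biased hepatic genes tested had a median of 0.21, with C6 at 0.36 (SE 0.16) and Serpina4-ps1 at −0.04 (SE 0.23).

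The members shared a modest common movement across libraries. In the median over the 10, log2 CPM lay from the 6-library mean by 0.14 in fl/fl 1, −0.25 in fl/fl 2, 0.08 in fl/fl 3, −0.08 in KO 3, 0.13 in KO 4 and −0.12 in KO 5. Both genotypes held libraries on either side of 0. As a description over 6 libraries of 2 genotypes and 2 days, which share their scaling, Pearson's r between members ranged from −0.47 (Ces1f with Ces2c) to 0.89 (Ces1d with Ces3b). Of 7051 other genes at a mean of at least 10 CPM, 46 had an r above 0.9 with the median profile of the family. With 6 libraries such an r can arise by chance, and how many genes would reach it so was not tested. The 5 most alike were Commd6 (0.98), Ppp1r3b (0.98), Cyp2j6 (0.98), Mms19 (0.97) and Tmem30a (0.97). Without fl/fl 1 and fl/fl 2, the libraries farthest from the median, their r was between 0.95 and 0.99 over the other 4. These genes were picked by their r over all 6 libraries, so this is no independent check.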

How the data were processed

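mRNA was sequenced from cultured primary hepatocytes, with 3 libraries of each genotype and totals of 30504248 to 38770694 counts. The authors trimmed reads (Trim Galore 0.6.7), aligned them to GRCm38 (STAR 2.7.10a), counted read pairs per gene with strand (featureCounts) and deposited raw counts, which are not normalized. The handling of multi-mapping reads is not given in the sources used here. Groups came from the labels. Genes with a mean DESeq2-normalized count above 5 were kept (15105 of 25184).

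Genotype, extraction day and their interaction were tested with edgeR 4.0.16 (R 4.3.3), in a quasi-likelihood fit over the whole table with extraction day as covariate, TMM factors and Benjamini-Hochberg adjustment at 0.05. DESeq2 1.42.0, the package of the study, was an alternative. Intervals are at 95%, and log2 CPM used a prior count of 2. RPKM used the summed exon length of GENCODE M21, in which 54 identifiers had no match. Coding sequences came from the same annotation and upstream sequences from RefSeq on GRCm38.p6, and alignments were made with Biopython. The fit was tested on simulated counts.

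The members and gene lists were chosen with earlier results of these data known. The genes named are the 10 members, the other carboxylesterases, Sucnr1, the gene of each list with the smallest unadjusted p in each direction, and the 5 genes most like the family's median profile. Oat was chosen after its values were seen. Alternatives were other scalings, filters, covariates and tools, day 2 alone and each library left out. Promoters of 3 members and the protein sequences were not used here.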

Additional observations from a re-analysis of the deposited data

Results flagged for a closer look

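In the 4 libraries of day 2, Ces2c had 1 library, KO 4, far from the rest: the gap to the next library was 0.870 of the whole range, above Dixon's critical value at 95%. The day 2 values were 68.4 and 57.2 CPM in fl/fl 2 and fl/fl 3, 183 CPM in KO 4 and 51.3 CPM in KO 5. The pseudogene Ces2d-ps was set apart by the same library, with a ratio of 0.926 (9.98, 8.70, 26.0 and 9.01 CPM). These rows can share reads and are not independent. Of the 15 carboxylesterase genes tested, these were the only ones past the critical value, and chance alone sets apart about 1 group in 20. The groups of 3 were not examined in this way. KO 4 was also the library with the highest pericentral landmarks (1.16), and the part of that in both values was not tested.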

How the results depend on the processing

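No member passed an adjusted p of 0.05 under any of the alternatives run, with a lowest adjusted p of 0.565 for genotype and 0.424 for extraction day, both for Ces2c without KO 5. At an unadjusted p below 0.05, 1 member (Ces2c) had a genotype difference with no filter on low counts. Leaving out each library in turn gave 0 to 1 members for genotype (Ces1e without fl/fl 2, Ces2c without KO 5) and 0 to 1 for day (Ces1e without KO 3, Ces2c without KO 5), and moved the median over the members between −0.10 and 0.055 for genotype, a change of sign, and between −0.22 (without KO 3) and 0.14 for day. With the longest transcript in place of all exons, 8 of 10 members stayed at their rank in RPKM, and no subfamily share moved by more than its SD. Of 150 genotype values of members under the alternatives 19 changed sign, and of 140 day values 12 did, and the cause was not tested. Without fl/fl 1 or without KO 3, day 1 keeps 1 library, which the day term takes up. The genotype values of these settings therefore rest on day 2 alone.

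The index series is read from the library names, and what it marks is not given. All 3 KO libraries and fl/fl 3 are of series B and the other 2 fl/fl libraries of series A, so it is largely tied to genotype. With it as a further term the sign changed for Ces2e (−0.088), Copb1 (0.018), Eif2s3y (−0.014) and Spp1 (−0.21), and with day 2 alone for Ces1d (0.034), Ces2a (0.16) and Serpina4-ps1 (0.22). Over libraries left out in turn, the genotype values (log2) that changed sign ranged for Ces1c from −0.066 to 0.0041, Ces1d −0.19 to 0.073, Ces1e −0.58 to 0.0010, Ces1g −0.15 to 0.30, Ces2a −0.24 to 0.17, Ces2e −0.14 to 0.34, Ces3a −0.047 to 0.23, Ces3b −0.070 to 0.026, Ces2b −0.051 to 1.17, Ces2g −0.057 to 0.33, Ces4a −0.26 to 0.94, Alb −0.50 to 0.012, Clec4g −0.0099 to 0.75, Eif2s3y −0.0055 to 0.14, Hnf4a −0.12 to 0.46, Lpl −0.068 to 1.07, Lrat −0.12 to 1.18, Nr1h3 −0.068 to 0.22, Serpina4-ps1 −0.30 to 0.22 and Slc25a20 −0.039 to 0.39. Without a change of sign, Ces2c ranged from 0.070 to 1.13, Ces2d-ps from 0.16 to 1.05, Ccnd1 from 0.021 to 0.80, Cdh1 from −0.73 to −0.066, Reln from −1.78 to −0.77 and Sucnr1 from −2.82 to −1.71. The day values ranged for Ces1d from −0.20 to 0.094, Ces1e −0.92 to 0.18, Ces1g −0.41 to 0.27, Ces2a −0.27 to 0.45, Ces2e −0.27 to 0.52, Ces3a −0.060 to 0.15 and Ces3b −0.059 to 0.023. No paired analysis was possible because the genotypes share only the replicate number 3, on different days. Depth did not limit the members, which had at least 1691 counts in each library, and limits Ces2h and the other untested genes.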
